A study of Mus musculus with 18 samples.

Results

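Immunoglobulin and B-lineage transcripts were followed in bone marrow-derived macrophages through 9 genes, namely the kappa light chain constant gene Igkc, the heavy chain constant genes Ighg2b, Ighg2c and Ighm, the joining chain gene Jchain, the B-cell receptor subunit genes Cd79a and Cd79b, the CD20 gene Ms4a1 and the plasma cell chaperone gene Mzb1. The genes were taken by their GENCODE names from the 38887 genes in the library tables, and all 9 were found. They had been selected on their TPM in these libraries, where earlier results showed high immunoglobulin levels in GILZ TG, so their differences between genotypes are given as a description, with no test. Levels between genes are compared as TPM, the share of a gene among all transcripts after division by gene length. The shares of heavy chain classes and of variable segments are shares of counts, not divided by gene length.

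The cells came from the bone marrow of female C57BL/6J mice aged 10 to 23 weeks and were differentiated for 6 days with M-CSF. Wild-type (WT) mice carried Cre recombinase in the Lyz2 locus, by the study's methods. GILZ KO mice combined this Cre with Tsc22d3 f/f, in which exon 6 of Gilz (the product of Tsc22d3) is flanked by loxP sites, and GILZ TG mice combined it with a Gilz cDNA in ROSA26 behind a loxP-flanked stop cassette. By this description deletion and overexpression are limited to cells in which Lyz2 is or was active, and the Cre is shared by all groups. The Lyz2 levels, which differed between WT and the other genotypes, are given below. Each genotype was sequenced in 3 libraries without treatment (untreated) and 3 libraries after 4 h with 100 ng/ml lipopolysaccharide (LPS), which gave 18 libraries. By the study, the 3 libraries of a group came from independent cell preparations. Whether the untreated and the LPS library with the same number shared a preparation is not stated.

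A B cell builds its receptor from a heavy chain and a kappa or lambda light chain, each with a variable part, joined from gene segments that differ between clones, and a constant part. IgM, whose heavy chain is encoded by Ighm, is the first class made. Activated B cells switch to other constant genes such as Ighg2b and Ighg2c, and plasma cells secrete large amounts of these chains, which makes immunoglobulin mRNA abundant in few cells. Cd79a and Cd79b form the signalling unit of the receptor, Ms4a1 marks mature B cells, Jchain links IgM and IgA subunits, and Mzb1 serves antibody secretion in the endoplasmic reticulum. Macrophages differentiated from bone marrow do not rearrange these loci, and plasma cells reside in the marrow.

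The libraries held 14583055 to 38557029 reads assigned to genes, and 3 counts, the limit that an observed count of 0 allows, correspond to 0.0778 to 0.206 CPM (counts scaled to library size). Tsc22d3 itself followed the labels, at 16.5 ± 2.08 TPM (SD, n = 3) in WT cells without LPS, at 2.34 ± 0.461 TPM where it was deleted and at 156 ± 3.93 TPM where it was overexpressed. The macrophage genes Adgre1 (434 to 868 TPM) and Cd68 (1019 to 1699 TPM) were high in all 18 libraries. Lyz2 stood at 6766 to 15401 TPM in the WT libraries and at 17.2 to 70.3 TPM in those of GILZ KO and GILZ TG, although the Cre allele in this locus was described as shared. Whether the WT libraries carry it was not tested.

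The kappa constant gene Igkc (chr6:70726435-70726966, + strand, GRCm38, a single exon) was abundant in the GILZ TG libraries and near 0 elsewhere. In untreated GILZ TG cells it read 42.3, 97.4 and 11.4 TPM in replicates 1, 2 and 3, from 121, 377 and 38 counts. The untreated WT libraries held 1.01, 0 and 0.84 TPM and those of GILZ KO 0, 1.37 and 1.46 TPM. Each GILZ TG library lay above each of the others, yet the lowest and the highest GILZ TG library stood far apart. After LPS the GILZ TG libraries read 43.1, 93.2 and 7.28 TPM, in the same order, against 0.6, 0.97 and 2.22 TPM in WT and 1.34, 0 and 0 TPM in GILZ KO. The fitted log2 fold change of GILZ TG over WT was 6.27 without treatment and 5.16 after LPS. Without GILZ TG replicate 2 it was 5.34 and 4.30, and the highest values with 1 library left out were 6.81 (WT replicate 1, untreated) and 5.85 (WT replicate 3, after LPS).

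Ighg2b, which encodes the IgG2b heavy chain constant region, showed the same arrangement (chr12:113302965-113307933, - strand). It read 7.88, 27.8 and 3.09 TPM in untreated GILZ TG cells and 9.31, 35.0 and 3.75 TPM after LPS. The WT libraries held 0.84, 0 and 0.51 TPM without treatment and 0, 0.17 and 0.22 TPM after LPS. The 3 untreated GILZ KO libraries held no count, so with a floor of 3 counts over that group the summed GILZ TG level was at least 170.2-fold higher, or at least 64.5-fold higher without GILZ TG replicate 2. Against WT the fitted log2 fold change was 4.82 untreated and 6.84 after LPS. Without GILZ TG replicate 2 it was 3.56 and 5.60, and the highest values with 1 library left out were 5.65 (WT replicate 1, untreated) and 7.45 (WT replicate 3, after LPS).

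Ighg2c, the IgG2c gene of the C57BL/6 strain (chr12:113285325-113288932, - strand), was found almost exclusively in GILZ TG. Its levels were 2.64, 11.0 and 0.51 TPM untreated and 2.33, 9.93 and 0.15 TPM after LPS. The 12 WT and GILZ KO libraries together held a single count, in WT replicate 3 after LPS. With the same floor of 3 counts over the group, the summed untreated GILZ TG level was at least 94.5-fold higher than in WT and at least 76.7-fold higher than in GILZ KO. After LPS the summed level was at least 51.0-fold higher than in GILZ KO. Without GILZ TG replicate 2, an alternative chosen after seeing the data as for Ighg2b above, these bounds were 27.3-fold, 22.2-fold and 17.8-fold. The bounds for both genes pool the GILZ TG libraries. They cover counting error in the group without counts, not the spread between replicates, and are not bounds for each replicate. GILZ TG replicate 3 held 8 Ighg2c counts untreated and 2 after LPS.

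The 2 IgG genes are close relatives, so the reference sequence of the first 75 coding bases of each (1 read length, GRCm38, 5′ to 3′ on the - strand, positions chr12:113307859-113307933 and chr12:113288858-113288932) is shown to let a reader see how reads can be told apart. Capitals mark the 7 bases at which both stretches differ.
Ighg2b: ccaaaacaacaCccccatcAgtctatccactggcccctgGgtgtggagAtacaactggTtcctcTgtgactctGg
Ighg2c: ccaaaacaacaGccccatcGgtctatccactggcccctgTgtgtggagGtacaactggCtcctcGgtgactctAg
Over the whole annotated transcripts, 6 windows of 75 bases were identical in Ighg2b and Ighg2c, of 2603 windows in the first and 1251 in the second. The deposited posterior standard deviation of the count was 0 for the 9 members in each library, except for Ighg2b and Ighg2c in untreated GILZ TG replicate 2, where it was 0.46 counts.

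Jchain (chr5:88519809-88527891, - strand) followed at a lower level. It read 2.02, 4.95 and 0.22 TPM in untreated GILZ TG cells, from 32, 106 and 4 counts, and 2.32, 4.87 and 0.5 TPM after LPS. The other 12 libraries held 0 to 0.29 TPM, from at most 3 counts each. GILZ TG replicate 3 without treatment equalled the highest untreated GILZ KO library, at 0.22 TPM.

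Over the 9 members, 4 (Igkc, Ighg2b, Ighg2c and Jchain) had each GILZ TG library above each WT library, both untreated and after LPS. The rule that chose the members used these contrasts, so nothing is read from this count. Of all genes with a count in the 6 libraries compared, 7.5% of 19773 had each GILZ TG library above each WT library untreated and 6.29% of 19568 after LPS. In GILZ TG replicates 1 and 2, the untreated and the LPS-treated libraries held similar TPM of these 4 genes. On the count scale used for the LPS test below, Ighg2b read 3.28, 11.7 and 1.32 CPM untreated in GILZ TG replicates 1, 2 and 3. After LPS it read 6.10, 21.9 and 2.55 CPM. In bulk RNA, fewer cells of a type and less RNA per cell cannot be told apart.

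**Figure D1:**
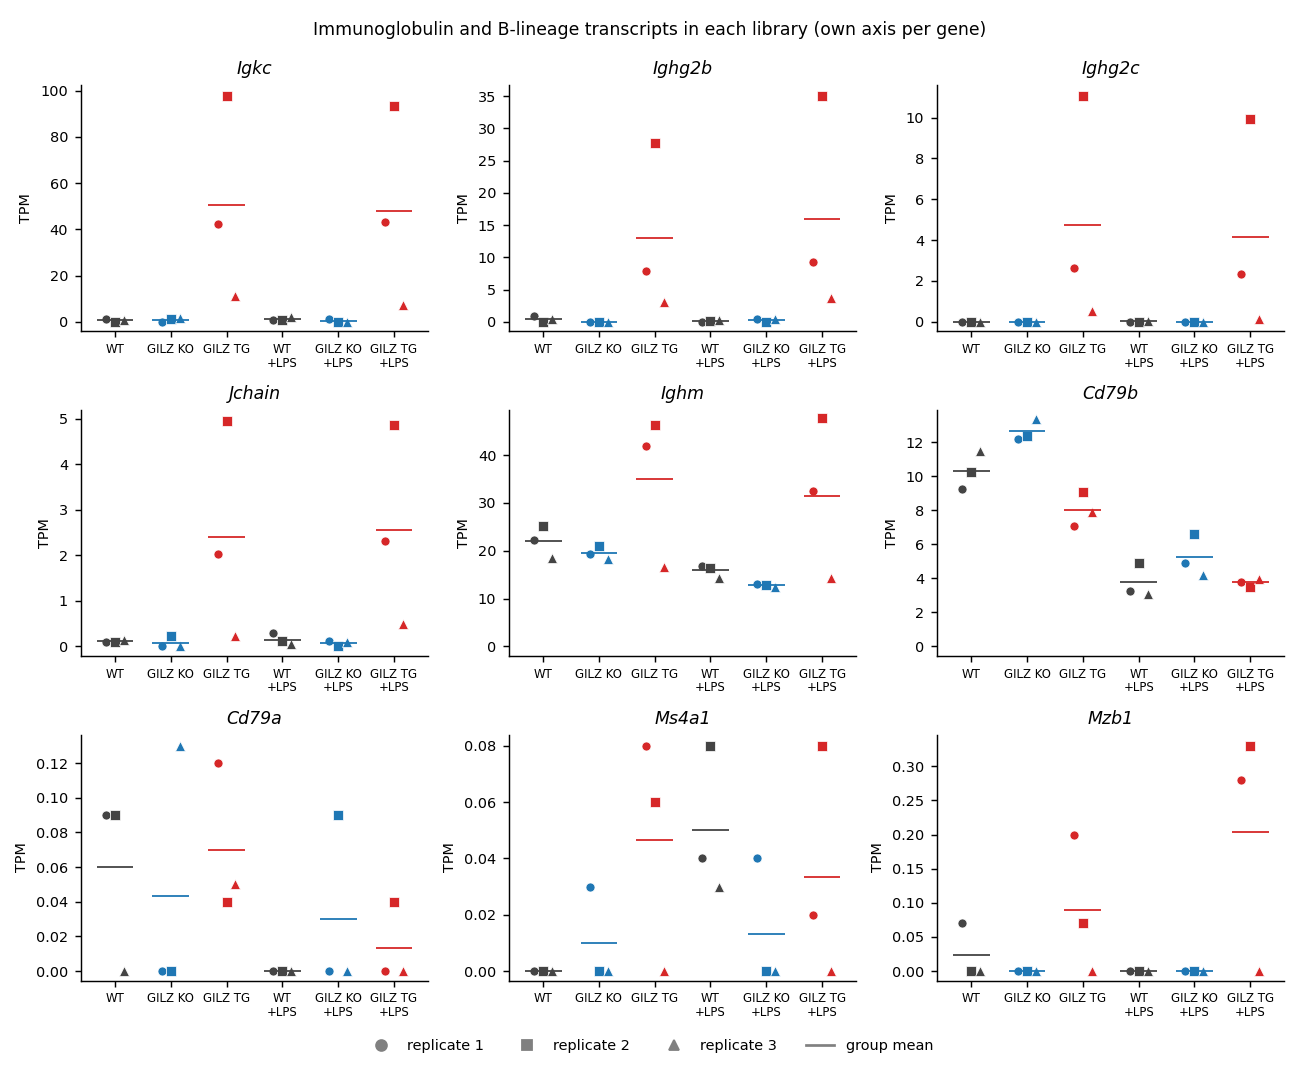
TPM of the 9 members (1 panel each, own linear axis) in the 18 libraries, by genotype and treatment; circles, squares and triangles are replicates 1, 2 and 3, and bars are group means. Igkc, Ighg2b, Ighg2c and Jchain are high in GILZ TG replicates 2 and 1 and low in replicate 3, Ighm is present in each library, and Cd79b is lower on the TPM scale after LPS in all genotypes.

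The class of the switched heavy chains could be read from the counts of Ighg2b, Ighg2c, Ighg1, Ighg3, Igha and Ighe. In GILZ TG these summed to 151, 708 and 59 counts in untreated replicates 1, 2 and 3 and to 273, 922 and 54 counts after LPS, against 0 to 14 counts in the other 12 libraries. Ighg2b made up 58.3% (95% exact Clopper-Pearson interval 50.0 to 66.2%), 59.4% (55.7 to 63.1%) and 67.8% (54.4 to 79.4%) of them untreated. After LPS its share was 69.6% (63.8 to 75.0%), 65.5% (62.3 to 68.6%) and 74.1% (60.4 to 85.0%), so the intervals overlapped between the replicates of a treatment. Ighg2c came next in replicates 1 and 2, with 23.8 and 28.7% untreated and 21.3 and 22.7% after LPS, and made up 13.6 and 3.70% in replicate 3. Igha, the IgA gene, reached 76 counts in GILZ TG replicate 2 after LPS. The intervals cover counting error only, since reads without molecular identifiers are not independent molecules. The shares are of counts, not divided by gene length, so they are not shares of transcripts.

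All immunoglobulin genes in the tables except Ighm, 243 in number, summed to 21.3 CPM (95% exact interval 19.4 to 23.4), 56.6 CPM (53.9 to 59.4) and 5.51 CPM (4.61 to 6.53) in untreated GILZ TG replicates 1, 2 and 3. After LPS the sums were 20.8, 61.5 and 5.01 CPM. The 12 WT and GILZ KO libraries ranged from 0 to 0.939 CPM, and GILZ KO replicate 2 after LPS held no such count, which allows up to 0.253 CPM. The counting intervals of the 3 GILZ TG replicates did not overlap. On this scale the untreated and LPS-treated library of a replicate were close, but the median log2 change of all genes tested with LPS in GILZ TG was -0.677. On the count scale used for the LPS test below, the Igkc mean in GILZ TG was 5.41 CPM untreated and 7.81 CPM after LPS.

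Variable segments gave the same picture with a finer label, because each B-cell clone uses 1 heavy and usually 1 light segment. Of the 108 heavy (Ighv), 103 kappa (Igkv) and 3 lambda (Iglv) segments in the tables, the kappa segments summed to 107, 311 and 14 counts in untreated GILZ TG replicates 1, 2 and 3 and to 157, 425 and 15 counts after LPS. The heavy segments summed to 63, 171 and 21 counts untreated and to 133, 261 and 14 counts after LPS. In the WT and GILZ KO libraries both sums lay between 0 and 7 counts. In GILZ TG replicate 2 the kappa counts fell on 41 segments untreated and 42 after LPS, and the heavy counts on 34 and 41, so many segments were in use.

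Replicates 1 and 2 differed in their leading segments. In GILZ TG replicate 2, Ighv1-42 (chr12:114937113-114937544, - strand) held 44 of 171 heavy counts untreated (25.7%, 95% exact interval 19.4 to 32.96%) and 78 of 261 after LPS (29.9%, 24.4 to 35.8%). Igkv17-127 (chr6:67861153-67861659, + strand) held 56 of its 311 kappa counts untreated (18.01%, 13.9 to 22.7%) and 86 of 425 after LPS (20.2%, 16.5 to 24.4%). In GILZ TG replicate 1, Igkv17-127 had 0 and 3 counts. Ighv1-42 was also used there, with 3 of 63 heavy counts untreated and 9 of 133 after LPS.

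Replicate 1 had other leading segments. After LPS these were Ighv4-1 (chr12:113948282-113948796, - strand) with 21 of 133 heavy counts (15.8%, 10.0 to 23.1%) and Igkv6-17 (chr6:70371439-70371993, + strand) with 22.9 of 157 kappa counts (14.6%, 9.52 to 21.2%). Without treatment Ighv1-26 led with 6 of 63 heavy counts (9.52%, 3.58 to 19.6%) and Igkv4-55 with 8.6 of 107 kappa counts (7.99%, 3.92 to 15.4%), while Ighv4-1 had 4 counts and Igkv6-17 had 8. At such counts the order of these segments was not resolved. In GILZ TG replicate 2, Igkv6-17 had 1.4 counts untreated and 0 after LPS, and Ighv4-1 had 0 and 4. Untreated GILZ TG replicate 3 had 21 heavy counts, of which 9 fell on Ighv1-42 (42.9%, 21.8 to 66.0%). After LPS 7 of its 14 heavy counts fell on Ighv1-42, a total below the 20 counts set for naming a leading segment. These 6 segments had no count in the WT and GILZ KO libraries.

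The last 75 bases of the coding exon are given below for the leading segments of replicate 2 and of replicate 1 after LPS. They are printed as the reference has them (GRCm38, 5′ to 3′ on the strand of the gene). Capitals mark the codon of the conserved cysteine that closes the framework before the clone-specific junction, found as the last TGT or TGC that follows a tyrosine codon and a second tyrosine or phenylalanine codon. Ighv1-42 lies at chr12:114937113-114937187 (-), Igkv17-127 at chr6:67861585-67861659 (+), Ighv4-1 at chr12:113948282-113948356 (-) and Igkv6-17 at chr6:70371919-70371993 (+).
Ighv1-42: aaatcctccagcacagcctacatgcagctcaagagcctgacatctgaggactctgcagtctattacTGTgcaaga
Igkv17-127: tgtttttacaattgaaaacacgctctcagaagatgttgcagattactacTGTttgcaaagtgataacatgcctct
Ighv4-1: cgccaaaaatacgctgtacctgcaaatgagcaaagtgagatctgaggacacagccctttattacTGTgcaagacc
Igkv6-17: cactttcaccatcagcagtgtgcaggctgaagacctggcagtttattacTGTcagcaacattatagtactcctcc
Of the windows of 75 bases in each annotated transcript, 90.3% in Ighv1-42, 75.8% in Igkv17-127, 86.5% in Ighv4-1 and 74.3% in Igkv6-17 occurred in no other gene's transcripts. Rearranged and mutated copies in a cell can differ from these letters, and their reads may be lost or counted to a neighbour segment.

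Usage could also be compared over all segments, as the share of counts that 2 libraries place on the same segments. For the kappa segments, the untreated and the LPS-treated library of GILZ TG replicate 2 shared 76.7% and those of replicate 1 shared 49.6%, whereas libraries of different replicates shared 36.4 to 44.3%. For the heavy segments the same-number pairs shared 70.1% (replicate 2) and 54.4% (replicate 1), and pairs of different numbers 14.1 to 40.5%. Libraries with under 20 counts were left out, and the shares of shallow libraries are lowered by counting error. The comparison is a description over 4 or 5 libraries, with no test.

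**Figure D2:**
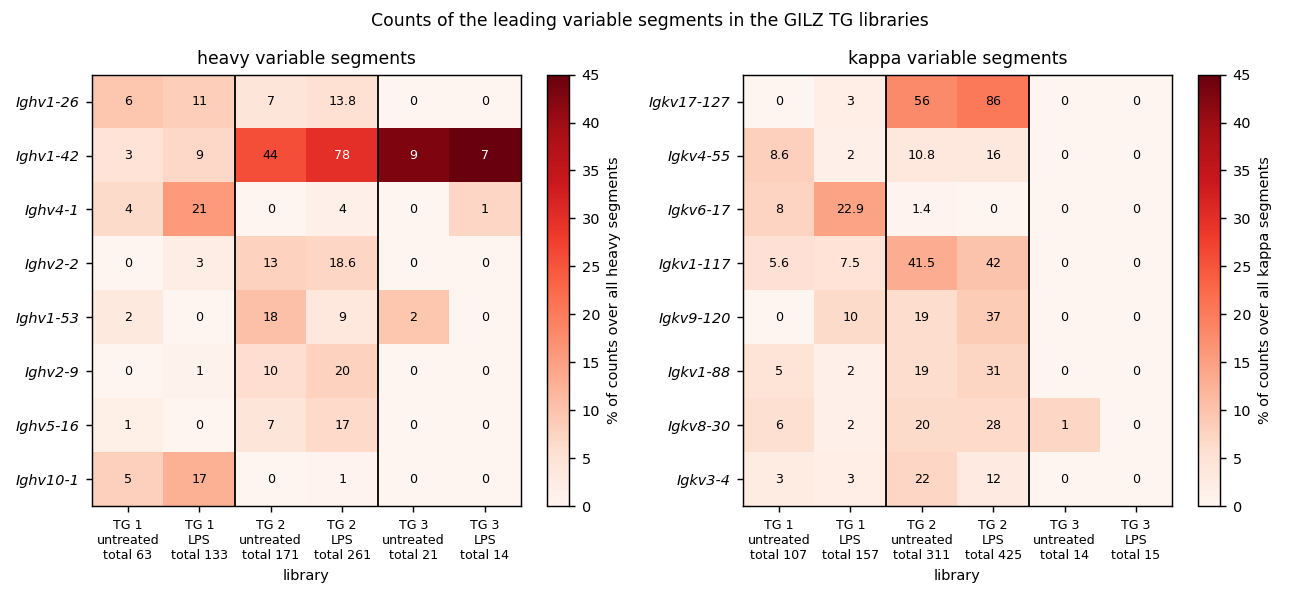
Counts (printed) of the 8 heavy (left) and 8 kappa (right) variable segments that lead in the 6 GILZ TG libraries, arranged by replicate; the colour gives each count as a percentage of all heavy or all kappa segment counts of the library, whose total stands under the column. Ighv1-42 and Igkv17-127 are strong in both libraries of replicate 2, and Ighv4-1, Ighv10-1 and Igkv6-17 are highest in replicate 1 after LPS. Ighv1-42 also takes 9 of 21 heavy counts of replicate 3 untreated and 7 of 14 after LPS. The columns of replicate 3 rest on 14 to 21 counts.

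Ighm, the IgM heavy chain gene (chr12:113418558-113422730, - strand), behaved differently, as it was detected in each of the 18 libraries. Without LPS it read 22.3, 25.1 and 18.5 TPM in WT cells. GILZ KO cells had 19.3, 20.9 and 18.2 TPM, and GILZ TG cells 42.0, 46.2 and 16.6 TPM. GILZ TG replicates 1 and 2 lay above the other untreated libraries and replicate 3 below them, so the groups overlapped. After LPS the values were 16.9, 16.5 and 14.3 TPM in WT, 13.1, 12.8 and 12.5 TPM in GILZ KO and 32.5, 47.7 and 14.3 TPM in GILZ TG. The fitted log2 fold change of GILZ TG over WT was 0.66 untreated (0.4 to 0.99 with 1 library left out) and 0.99 after LPS (0.61 to 1.31). In the WT and GILZ KO libraries Ighm stood at 12.5 to 25.1 TPM (135 to 539 counts) and Igkc at 0 to 2.22 TPM (0 to 8 counts). The heavy and the kappa segments held at most 7 counts each in any of these libraries.

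The 2 subunits of the receptor's signalling unit stood at different levels. Cd79b (chr11:106311341-106314762, - strand) read 9.23, 10.2 and 11.5 TPM in WT cells without LPS. The GILZ KO values were 12.2, 12.4 and 13.4 TPM, the GILZ TG values 7.05, 9.05 and 7.88 TPM. The untreated GILZ TG libraries were thus the lowest and the GILZ KO libraries the highest, without overlap. Of all genes with a count, 4.11% lay lower in this way in GILZ TG than in WT, 9.25% higher in GILZ KO than in WT and 12.9% higher in GILZ KO than in GILZ TG. The fitted log2 fold change was -0.36 (SE 0.14) for GILZ TG over WT and 0.24 (SE 0.14) for GILZ KO over WT. After LPS, WT held 3.27, 4.92 and 3.09 TPM, GILZ KO 4.89, 6.63 and 4.19 TPM and GILZ TG 3.77, 3.52 and 3.99 TPM, and WT and GILZ TG overlapped. Cd79a (chr7:24897381-24902197, + strand), its partner, had at most 2 counts in any library and at most 0.13 TPM.

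Ms4a1 (chr19:11249675-11266241, - strand) had at most 3 counts and 0.08 TPM in any library, with counts in 9 of 18 libraries. Mzb1 (chr18:35647267-35649367, - strand) had 5 counts in each of GILZ TG replicates 1 and 2 after LPS (0.28 and 0.33 TPM), 2 and 1 counts without treatment and 0 in replicate 3. The 12 WT and GILZ KO libraries held 1 Mzb1 count in all. For Cd79a and Ms4a1, at 3 counts or fewer in each library, a difference between groups was not detectable at this depth. Antisense, nested or neighbouring annotated genes overlap Igkc, Ms4a1 and Mzb1, of which the one at Ms4a1 reached 1 count and the others were not analysed here.

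Beyond the members, the other genes of the lineage were examined in lists of B-cell identity (19 genes), early B-lineage (8) and plasma cell (14) genes. Of the B-cell identity genes 13 of 19 stayed below 1 TPM in all 18 libraries, as did 7 of 8 early and 2 of 14 plasma cell genes. Cr2, Fcer2a, Pax5, Blk, Fcrla and Fcmr had at most 3 counts in any library, as did Igll1, Vpreb2, Vpreb3, Rag1 and Rag2 of the early list and Tnfrsf17, the BCMA receptor of plasma cells. By contrast, Cd72 (151 to 504 TPM), an inhibitory coreceptor, and Blnk (39.7 to 104 TPM), an adaptor of the receptor, were high in all 18 libraries. So were Il7r (24.1 to 85.2 TPM), the interleukin 7 receptor, Sec11c (241 to 449 TPM), a signal peptidase subunit, and Xbp1 (92.3 to 133 TPM), a factor of the secretory program. Sdc1 (40.3 to 86.0 TPM), the syndecan that marks plasma cells, Tnfrsf13b (19.0 to 49.0 TPM) and Fcrl1 (4.32 to 16.9 TPM) were also present in each library. Pou2af1, a B-cell coactivator, had counts in GILZ TG replicates 1 and 2 alone, at 0.07 and 0.05 TPM untreated and 0.04 and 0.17 TPM after LPS. It had at most 8 counts in a library and was picked after its values were seen. Other low genes of these lists were mixed. Tnfrsf17 also had counts in these replicates alone, at most 2 in a library. Ebf1 was highest in GILZ TG replicate 3 after LPS (0.66 TPM) and Pax5 in WT replicate 1 after LPS (0.16 TPM). Many listed genes are also expressed in macrophages. The summed level of the plasma cell list spanned 749 to 793 TPM in WT cells without LPS. It spanned 803 to 849 TPM in GILZ KO and 783 to 851 TPM in GILZ TG, so the range of GILZ TG overlapped those of both WT and GILZ KO.

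These other B-lineage and plasma cell genes, 41 in all, were not used to choose the members and were tested between genotypes. The lists were drawn up with earlier results of these data known, so the tests below are not independent of those results. Without treatment 19 passed the filter on low counts, and GILZ TG and WT differed in 3 by edgeR's quasi-likelihood test, beside 0.642% of 12621 genes called (0.364% higher and 0.277% lower). Cd72 read 405, 377 and 254 TPM in GILZ TG against 201, 170 and 156 TPM in WT and rose by 0.94 (SE 0.14, adjusted p = 0.0199, log2). Blnk read 56.3, 60.4 and 55.3 TPM against 45.8, 43.0 and 39.7 TPM and rose by 0.40 (SE 0.05, adjusted p = 0.0096). Cd38, an ectoenzyme of plasma cells and of activated macrophages, read 3.64, 3.82 and 3.34 TPM against 6.09, 7.53 and 7.86 TPM and fell by 1.00 (SE 0.14, adjusted p = 0.0133). In Cd72 and Blnk, unlike in Igkc, GILZ TG replicate 2 was not far above replicate 1. Without GILZ TG replicate 2, or without WT replicate 2, none of the 3 was called, and without GILZ TG replicate 1 the count was 1.

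After LPS, 18 of the 41 genes passed the filter and 1 was called, beside 0.46% of 12164 genes (0.263% higher and 0.197% lower). It was Cd38, with 31.1, 36.8 and 43.0 TPM in GILZ TG against 57.0, 72.0 and 82.2 TPM in WT (log2 fold change -0.93, SE 0.15, edgeR adjusted p = 0.0242). This call was lost without GILZ TG replicate 1 or 2 or WT replicate 2 or 3 (count 0 in each case), and the count was 3 without GILZ TG replicate 3.

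GILZ KO was then compared with GILZ TG over the same list, with the same GILZ TG libraries as above. Untreated, 3 of 19 genes were called, beside 4.94% of 12621 genes (2.77% higher and 2.16% lower in GILZ KO). Cd72 was lower in GILZ KO by a log2 fold change of -1.20 (SE 0.14, edgeR adjusted p = 0.00359) and Blnk by -0.41 (SE 0.05, adjusted p = 0.00433). Tnfrsf13b, the TACI receptor gene, was higher by 0.26 (SE 0.05, adjusted p = 0.0301), a call lost without GILZ KO replicate 1 or 2 or GILZ TG replicate 1 or 2 (adjusted p = 0.066 to 0.122). After LPS 3 of 18 were called, beside 2.6% of 12164 genes (1.22% higher and 1.38% lower), and these were Cd72 (-0.95, SE 0.17, edgeR adjusted p = 0.0202), Tnfrsf13b (0.41, SE 0.075, adjusted p = 0.0212) and Cd38 (0.86, SE 0.15, adjusted p = 0.0174). None of these LPS calls held when GILZ TG replicate 1 or 2 or any of the GILZ KO replicates was left out (count 0), and 5 genes were called without GILZ TG replicate 3. Between GILZ KO and WT edgeR called 0 of 19 genes untreated, beside 0.0951% of 12621 genes (0.0475% in each direction), and 0 of 18 after LPS, beside 0.0822% of 12164 (0.0411% in each direction). At an unadjusted p below 0.05 there were 2 and 1 such genes, and DESeq2 and limma also called 0.

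The B-cell receptor signalling list, whose 14 genes also serve other immune receptors, was expressed throughout, led by Pik3ap1 (196 to 724 TPM) and Ptpn6 (235 to 304 TPM). Between genotypes 1 of the 14 was called in 1 of the 6 comparisons. Plcg2, a phospholipase C gene, was higher in untreated GILZ KO than in GILZ TG (log2 fold change 0.22, SE 0.05, edgeR adjusted p = 0.0389), in a comparison that called 4.94% of 12621 genes.

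Markers of other cell types varied along with the immunoglobulins over the GILZ TG libraries. The summed level of 10 neutrophil lineage genes spanned 24.3 to 61.5 TPM in WT cells without LPS, with 31.5 to 61.6 TPM for GILZ KO and 70.2 to 486 TPM for GILZ TG, and after LPS 21.3 to 77.8, 53.6 to 66.9 and 84.4 to 518 TPM. S100a9, a subunit of calprotectin, read 76.0, 199 and 28.9 TPM in untreated GILZ TG replicates 1, 2 and 3, and Ngp, a granule protein gene, 33.9, 81.4 and 11.0 TPM. Relative to replicate 2, replicate 1 was at 43.4% for Igkc, 38.1% for S100a9 and 41.6% for Ngp, and replicate 3 at 11.7, 14.5 and 13.6%. After LPS these shares were 46.2, 43.1 and 38.0% for replicate 1 and 7.81, 17.1 and 11.7% for replicate 3.

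The stromal list of 8 genes, led by the collagen genes Col1a1 and Col1a2, was high in GILZ TG replicates 1 and 2. Its sum spanned 11.8 to 22.5 TPM in WT cells without LPS, with 5.21 to 12.4 TPM for GILZ KO and 10.4 to 119 TPM for GILZ TG, and after LPS 14.6 to 22.1, 10.9 to 17.0 and 10.6 to 113 TPM. Col1a1 read 44.2, 51.3 and 4.98 TPM in untreated GILZ TG, so replicate 1 was at 86.2% of replicate 2 and replicate 3 at 9.71%. For Ighm these shares were 90.9 and 35.9%. Between untreated GILZ TG and WT, edgeR called 0 of 4 neutrophil and 0 of 6 stromal genes that passed the filter, with 4 and 6 at an unadjusted p below 0.05, while DESeq2 called 2 and 0 and limma 0 and 0. Untreated GILZ KO was lower than GILZ TG in 2 of the 4 (Ltf and S100a9) and 3 of the 6 (Col1a1, Col1a2 and Col3a1) by edgeR, beside 2.16% of all genes, while DESeq2 called 4 and 6 and limma 0 and 0. The part of these markers in the immunoglobulin levels was not tested.

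Of the T cell list, 8 of 10 genes stayed below 1 TPM in all 18 libraries, Cd247 and Lck being the exceptions (at most 7.28 and 3.56 TPM). The same held for 4 of 5 natural killer cell genes, with Klrk1 at up to 4.34 TPM, and for all 7 erythroid genes. Of 4 plasmacytoid dendritic cell genes, 2 stayed below 1 TPM, and Ccr9 and Cox6a2 reached 1.19 and 1.07 TPM. The defining genes Cd3e, Cd3d, Cd3g, Ncr1 and Siglech had at most 3 counts in any library.

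**Figure D3:**
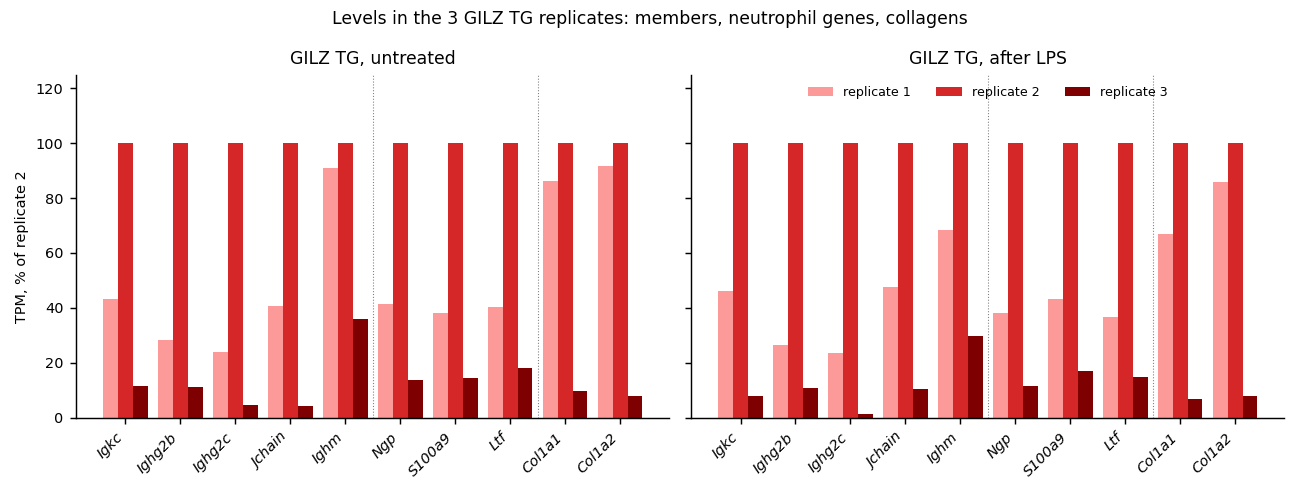
TPM in the 3 GILZ TG replicates as a percentage of replicate 2 of the same treatment (linear axis from 0), untreated on the left and after LPS on the right, for 5 members, 3 neutrophil genes and 2 collagen genes, separated by dotted lines. Replicate 1 is at 23.9 to 43.4% for Igkc, Ighg2b, Ighg2c and Jchain untreated, and at 86.2 and 91.6% for the collagens; replicate 3 is the lowest for each of the 10 genes.

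Whether LPS changed the members was tested within each genotype and over all 18 libraries with edgeR, on counts scaled by the trimmed mean of M-values (TMM). The scale matters for this contrast, since the median log2 change of the 13169 genes tested was -0.025 in WT, -0.032 in GILZ KO and -0.022 in GILZ TG after TMM scaling, but -0.622, -0.636 and -0.622 on the TPM scale. Of the 9 members 6 passed the filter on low counts, 4 of them (Igkc, Ighg2b, Ighg2c and Jchain) through the GILZ TG libraries, so within WT and GILZ KO Cd79b and Ighm alone had counts in each library. A single member, Cd79b, was called in each genotype, and it was lower, beside 35.1, 35.4 and 35.1% of all genes called lower in WT, GILZ KO and GILZ TG (33.5, 33.2 and 33.6% were called higher, and 68.6, 68.5 and 68.7% in either direction).

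On the TMM scale Cd79b read 4.67, 5.21 and 6.201 CPM in untreated WT and 2.60, 3.96 and 2.41 CPM after LPS. In GILZ KO it read 6.07, 6.25 and 6.73 CPM and then 3.73, 5.22 and 3.29 CPM, and in GILZ TG 3.58, 4.66 and 4.16 CPM and then 3.02, 2.65 and 3.25 CPM. The groups did not overlap in any genotype, as for 36.4, 38.8 and 36.5% of the 13169 genes that lay lower after LPS without overlap in WT, GILZ KO and GILZ TG. The log2 fold change was -0.85 (SE 0.19, edgeR adjusted p = 0.000833) in WT, -0.65 (SE 0.19, adjusted p = 0.00679) in GILZ KO and -0.49 (SE 0.19, adjusted p = 0.0326) in GILZ TG. It was -0.66 (SE 0.11, adjusted p = 3.18e-05) over the mean of the 3 genotypes. The fall had the same direction on the TPM scale in each genotype. In GILZ KO it was no longer called without replicate 3 (-0.48, adjusted p = 0.0924), nor in GILZ TG without replicate 2 (-0.31, adjusted p = 0.278) or replicate 3 (-0.54, adjusted p = 0.0527). Whether the change differed between genotypes was not tested.

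With all 18 libraries and no term for the replicate, edgeR called no immunoglobulin member and not Jchain with LPS. DESeq2 called Ighg2b higher in GILZ KO (log2 fold change 4.97, adjusted p = 0.0116), from 0 counts in the 3 untreated libraries and 5, 0 and 4 counts after LPS. Ighm changed by a log2 fold change of 0.16 (SE 0.33, edgeR adjusted p = 0.675) in WT, 0.02 (SE 0.35, adjusted p = 0.958) in GILZ KO and 0.48 (SE 0.31, adjusted p = 0.18) in GILZ TG, and on the TPM scale the direction turned in all genotypes (-0.46, -0.60 and -0.18). In GILZ TG, Igkc changed by 0.55 (SE 0.67, edgeR adjusted p = 0.49) and Ighg2c by 0.42 (SE 1.02, adjusted p = 0.738), both with the opposite sign on the TPM scale (-0.22 and -0.54). Ighg2b changed by 0.91 (SE 0.74, edgeR adjusted p = 0.289) and Jchain by 0.70 (SE 0.72, adjusted p = 0.408). Without the block, the 95% intervals of these changes in GILZ TG reached from -0.77 to 1.86 for Igkc, from -1.59 to 2.43 for Ighg2c, from -0.53 to 2.36 for Ighg2b and from -0.72 to 2.12 for Jchain, so each held a log2 change of 1 and of 0. Same-numbered GILZ TG libraries deviated together, and with the replicate as a block edgeR called Ighm (0.46, adjusted p = 0.000157) and Ighg2b (0.91, adjusted p = 0.0123) higher in GILZ TG. Ighm on the TMM scale read 24.4, 27.04 and 9.97 CPM untreated and 29.7, 41.6 and 13.7 CPM after LPS in replicates 1, 2 and 3, and was higher after LPS in 3 of 3 pairs, whereas on the TPM scale it was higher in 1 of 3. Without GILZ TG replicate 3 and without the block, Ighm was also called higher in GILZ TG (log2 fold change 0.47, edgeR adjusted p = 0.00779).

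**Figure D4:**
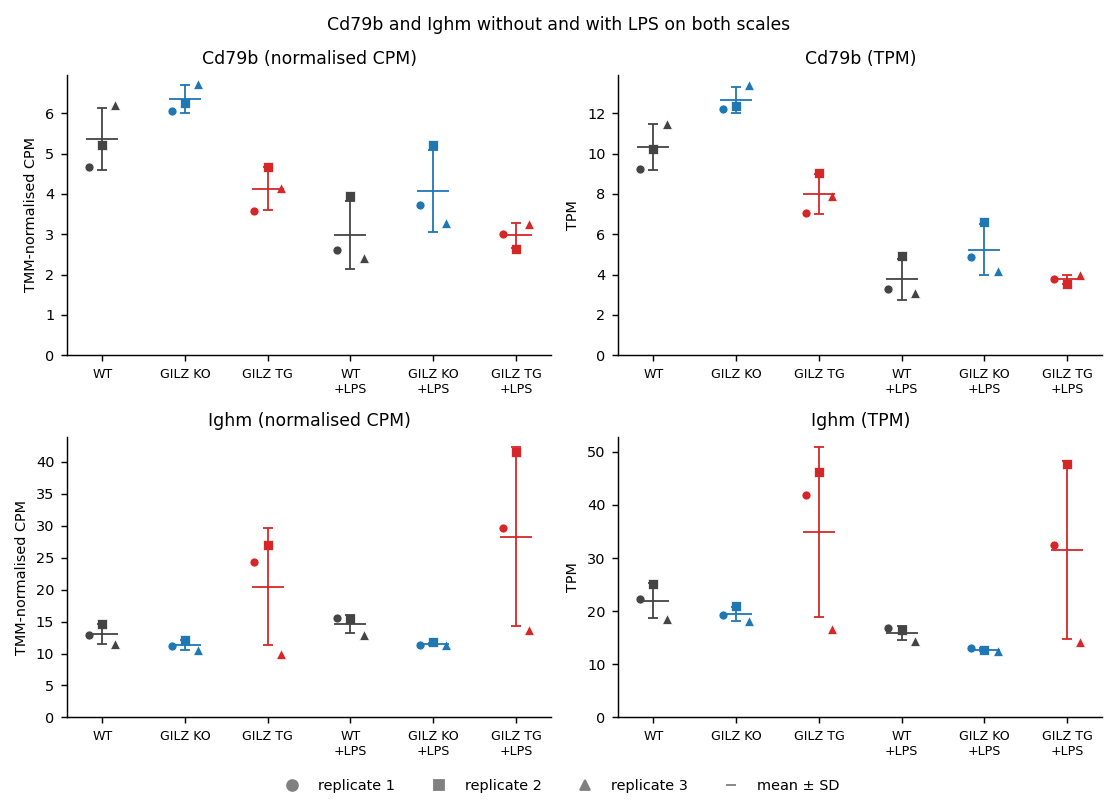
Cd79b (top) and Ighm (bottom) in the 18 libraries as TMM-normalised CPM (left) and TPM (right), by genotype without and with LPS; symbols are replicates 1, 2 and 3, and bars are the mean ± SD of 3 libraries. Cd79b is lower after LPS on both scales, whereas the mean of Ighm is higher after LPS in normalised CPM and lower in TPM.

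For comparison, of the 41 other B-lineage and plasma cell genes 20 passed the filter over the 18 libraries, and with LPS 9 were called higher and 7 lower over the mean of the 3 genotypes, beside 38.6 and 41.5% of all genes (80.1% together). Among them Slamf7 (log2 fold change 4.74), Cd38 (4.08), Prdm1 (2.57), Irf4 (2.47) and Blnk (1.58) rose, and Ralgps2 (-1.37), Il7r (-0.69), Fcrl1 (-0.49) and Tnfrsf13b (-0.23) fell. On the TPM scale limma called 7 higher and 12 lower, beside 17.6 and 70.9% of all genes (88.5% together), and Xbp1 (0.36 by edgeR) and Sdc1 (0.35) were among those that changed side. Of the 14 receptor signalling genes 8 rose and 3 fell by edgeR, Lyn (2.28) and Syk (1.71), both kinases next to the receptor, among the former and Inpp5d (-1.55), a phosphatase, among the latter, whereas limma on TPM gave 5 higher and 8 lower.

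The genes whose pattern over the 18 libraries was most like that of Igkc, leaving out members and immunoglobulin segments, were ranked by Pearson's r on log2(TPM + 0.1). As the points share library, genotype and replicate, r is a description. The first was Mmp12, a macrophage elastase gene (r = 0.886), with 1089 to 1332 TPM in the 6 GILZ TG libraries and 461 to 663 TPM in the other 12. Next came Fstl3 (0.869), Spry4 (0.855), Itgax (0.854), Pakap (0.843), the gene ENSMUSG00000048149 (0.839), Col12a1 (0.837), Rcn3 (0.835), Olfm4 (0.834) and Ephb4 (0.826). Itgax, the CD11c integrin gene, read 9.36 to 20.6 TPM in GILZ TG and 3.61 to 7.05 TPM elsewhere. Col12a1 and Rcn3 were high in GILZ TG replicates 1 and 2 (2.55 to 4.65 and 4.56 to 7.79 TPM) and at 0.31 to 0.45 and 0.71 to 1.75 TPM in replicate 3. Among the members, r with Igkc was 0.883 for Ighg2c, 0.881 for Ighg2b, 0.876 for Jchain, 0.703 for Ighm and -0.244 for Cd79b.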

How the data were processed

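RNA of 18 libraries was poly(A)-selected and sequenced as single reads of 75 nt with a directional kit. For each library the authors deposited gene tables with expected counts, made with the grape-nf pipeline, and TPM, together with the posterior standard deviation of the counts. The builds named are GRCm38 and mm10. The authors' tables of DESeq2 comparisons hold fold changes and p-values of protein-coding genes and were not used.

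Expected counts were rounded and tested with edgeR 4.0.16 (quasi-likelihood test, TMM scaling, filterByExpr, Benjamini-Hochberg adjustment over all genes tested, threshold 0.05) in R 4.3.3. Genotypes were compared within the 9 libraries of a treatment, LPS within 18 libraries in 6 groups. Alternatives used DESeq2 1.42.0, limma 3.58.1 on log2(TPM + 0.1) or log2(TPM + 1), no filter, other sets of libraries and leaving out libraries. Replicate means are given ± SD. The SE of an edgeR log2 fold change is its size divided by the square root of the F statistic of the test. Untreated and LPS libraries with the same number deviated together in all 3 GILZ TG pairs (r = 0.266, 0.397 and 0.605 over genes), in 1 of 3 WT pairs and in 0 of 3 GILZ KO pairs (r above 0.1), a hint from the data, since the labels do not state a shared animal. On simulated data with 200 changed genes and no replicate effect, the edgeR fit found 81% of the 2-fold changes among the 12621 genes of the untreated GILZ TG and WT comparison. It found 82% among the 13169 genes of the LPS comparison in GILZ TG. The real LPS comparison called 68.7% of its genes, so the simulated rate need not hold there. The changed genes were drawn at random from all genes tested, with the same spread in all groups. The rates need not hold for genes with few counts or a wide spread in GILZ TG alone. In the real untreated GILZ TG and WT comparison, 0 of 4 neutrophil and 0 of 6 stromal genes were called. Their median log2 fold changes were 2.34 and 2.025.

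Members and gene lists were chosen with earlier results of these data known. The text names the members, list genes that were called or among the 2 most abundant, the top variable segment of each library with at least 20 segment counts, and the 10 genes most like Igkc among genes with at least 10 counts in 3 libraries. Ighv10-1, Ngp, Pou2af1, Ebf1, Adgre1, Cd68 and the defining markers given for being low were picked after their values were seen. Ighd, Iglc1, Iglc3 and Iglc4 were not analysed here. Gene positions and sequences come from GENCODE vM21.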

Additional observations from a re-analysis of the deposited data

How the results depend on the processing

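Of 565 recomputed values, 100 counts stayed within 1.5 times the reported one and 35 counts moved further. Of the single fold changes, 352 were taken as unchanged, 56 lost and 6 gained the call, 2 moved and 14 turned. For tested genes, unchanged meant the same direction and side of the threshold. For members between genotypes, which were not tested, it meant a shift within the pooled SD of the groups compared, whatever the sign. For the 41 other B-lineage and plasma cell genes, GILZ TG against WT without treatment gave 3 calls, but 1 with limma on log2(TPM + 0.1) and 0 with only the 6 libraries compared. After LPS this comparison gave 1 call, but 2 with DESeq2, 3 without the filter and 0 with only the 6 libraries. GILZ KO against GILZ TG after LPS gave 3 calls, but 1 with limma on either TPM pseudocount. Leaving out 1 library gave 0 to 4 and 2 to 4 calls untreated (GILZ TG against WT, GILZ KO against GILZ TG), 0 to 3 and 0 to 5 after LPS, and 0 for GILZ KO against WT. Leaving out GILZ TG replicates 1 and 2, an alternative chosen after seeing the data, gave 0 and 1 untreated, 0 and 0 after LPS. The causes were not tested.

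For LPS, 1 member was called in each fit. In WT 2 were called without the filter (Ms4a1 added), in GILZ KO 2 with DESeq2 (Ighg2b added). Both added calls rested on few counts, for Ms4a1 on 0 in untreated WT and 1, 2 and 1 after LPS. Leaving out 1 library gave 1 call in WT, 0 to 1 in GILZ KO and in GILZ TG, and 1 to 2 for the mean of the genotypes. Without GILZ TG replicates 1 and 2 the counts were 0 in GILZ TG and 2 for the mean. The direction of Ighm turned with limma on log2(TPM + 0.1) and log2(TPM + 1) in WT (-0.46 and -0.44), GILZ KO (-0.60 and -0.57), GILZ TG (-0.18 and -0.17) and the mean (-0.41 and -0.39), as did in GILZ TG that of Igkc (-0.22 and -0.21) and Ighg2c (-0.54 and -0.22). In GILZ KO, Ighm was -0.0016 without the filter and ranged from -0.02 to 0.07 when 1 replicate was left out.

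With the replicate block, LPS called 1 member in WT, 2 in GILZ KO (Ighg2b added), 3 in GILZ TG and 3 for the mean (Ighg2b and Ighm added in both). Ighg2b passed the filter through the GILZ TG libraries. In GILZ KO it had 0 counts in the 3 untreated libraries and 5, 0 and 4 counts after LPS, so nothing is read from its call there or from the part of GILZ KO in the mean. In WT and GILZ KO, and between genotypes (2 of 18 pairs above 0.1), the numbers did not pair the samples by the check used. The block changed no count of the other B-lineage genes by more than 1.5 times.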
